A study of Mus musculus with 2 samples.

Results

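The 9 genes described here serve the uptake of butyrate and the oxidation of fatty acids in the colon, and they were followed from the crypt to the surface of the epithelium. They were chosen by name, as exact gene symbols, from the 32285 genes counted in the study, and all 9 were found: Slc5a8, Slc16a1, Acsm3, Acads, Acadm, Cpt1a, Ppara, Pparg and Ppargc1a. The measurement was single-nucleus RNA sequencing of frozen colon from mice with chronic colitis, with 1 library of WT mice and 1 library of mice in which HIF-1α is deleted in NKp46+ cells (Ncr1cre+ Hif-1αfl+/fl+, termed HIF-1α KO). Both groups, aged 8 to 12 weeks, drank 2% dextran sodium sulfate (DSS), which damages the colon epithelium, for 3 days in each of 4 cycles with 4 days of recovery between, and colon was taken on day 28. Both libraries thus come from DSS-treated colon, and no untreated colon was analysed. Each library is a pool of 3 animals, so the animals cannot be told apart, a difference between the genotypes has no replicate check, and no p-value is given. The Cre recombinase is driven by the promoter of Ncr1, the gene of NKp46, a receptor of natural killer cells and other innate lymphoid cells, so that the epithelial nuclei described here are not themselves the target of the deletion. Hif1a was counted at 172 counts per 1000000 UMIs (CPM) in WT and 199 in HIF-1α KO over all nuclei, and Ncr1 had 1 UMI in WT and 0 in HIF-1α KO, so these data do not show the deletion.

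Butyrate, a short-chain fatty acid made by gut bacteria from fibre, is the main fuel of the colonocytes that line the colon. It enters the cell through the sodium-coupled transporter encoded by Slc5a8 and the proton-coupled transporter MCT1 encoded by Slc16a1, is joined to coenzyme A by acyl-CoA synthetases such as that encoded by Acsm3, and is oxidized in mitochondria by dehydrogenases, among which the product of Acads acts on short and that of Acadm on medium chains. Longer fatty acids must first be loaded onto carnitine by CPT1A, whereas short chains can enter mitochondria without it. PPARα and PPARγ are nuclear receptors for fatty acids, and PGC-1α, encoded by Ppargc1a, is a coactivator that raises mitochondrial gene expression. In the colon crypt, stem cells and dividing cells lie at the bottom, and absorptive cells mature as they move up to the surface, where butyrate is most abundant.

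The counts are unique molecular identifiers (UMIs), each standing for a captured RNA molecule. After nuclei with 400 to 5000 detected genes and at most 10% mitochondrial UMIs were kept, the WT library held 4884 nuclei with a median of 2058.5 UMIs and the HIF-1α KO library 4702 nuclei with a median of 4197. The libraries thus differed in depth, and 3 barcodes occurred in both. Clusters of nuclei were named from marker genes that do not include the 9 genes, which were also left out of the genes used for clustering. The crypt enterocyte-like class was led among its markers by Htr4 and Cftr, with 3 markers past the naming limits given below. The Gsdmc enterocyte-like class was led by Gsdmc2, Gsdmc3, Gsdmc4 and Cyp2c68, with 4 past them. The surface colonocyte-like class was marked by genes such as Ceacam20, Slc26a3 and Krt20. In order from crypt to surface the classes were stem-like (315 nuclei in WT and 299 in HIF-1α KO), cycling (452 and 320), crypt enterocyte-like (417 and 531), Gsdmc enterocyte-like (461 and 612) and surface colonocyte-like (414 and 725). The log2 ratio of all surface markers to all stem markers rose in this order from -1.38 to 3.43 in WT and from -0.74 to 3.97 in HIF-1α KO. The end classes were named from these markers, and the classes between were ordered by this ratio. The rise therefore describes the order and does not test it. Goblet-like (595 and 959) and enteroendocrine-like nuclei (148 and 132) stood outside this order. Clusters that took no name are not part of these classes; they made up 24.2% of nuclei in WT and 9.95% in HIF-1α KO.

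Levels are sums of UMIs per class and library in CPM, with exact 95% Poisson intervals that cover counting error only. RNA set free from broken cells adds UMIs to every nucleus. For this reason each level is set beside that in mesenchymal-like nuclei (fibroblast-like and smooth muscle-like, 523 in WT and 258 in HIF-1α KO), which are not absorptive, although their own transcription of a gene cannot be told apart from free RNA. Fibroblast-like nuclei had medians of 1956 and 2404 UMIs, against 3928.5 and 5967 in surface colonocyte-like nuclei. Whether free RNA makes up the same share of UMIs at both depths was not tested. The mesenchymal-like level is therefore no exact background for deeper classes. The surface markers together were at 1919 CPM in fibroblast-like nuclei of WT and at 3038 CPM in those of HIF-1α KO, while the stem markers were at 1211 and 1195 CPM. HIF-1α KO also held more surface colonocyte-like nuclei, so that a larger amount of free RNA and a different make-up of it cannot be told apart. Because a long gene offers more intronic sites for capture in nuclei, levels are compared between classes and libraries and not between genes.

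On GRCm38 (mm10), the build of the counts, Slc5a8 lies on chromosome 10 (88885992 to 88929515, plus strand), Slc16a1 on chromosome 3 (104638668 to 104658462, plus), Acsm3 on chromosome 7 (119760923 to 119787513, plus) and Acads on chromosome 5 (115110299 to 115119346, minus). Acadm lies on chromosome 3 (153922357 to 153944632, minus), Cpt1a on chromosome 19 (3322334 to 3385733, plus), Ppara on chromosome 15 (85734983 to 85802819, plus), Pparg on chromosome 6 (115360951 to 115490399, plus) and Ppargc1a on chromosome 5 (51454250 to 51567726, minus). Acsm3 and Pparg overlap a gene on the opposite strand, Eri2 and Gm44079, and Slc16a1 overlaps Gm43581 and Gm43585, annotated within its introns on the same strand. Reads of overlapping genes on the same strand may be split or left out by the counting, which makes the level of Slc16a1 less certain. For Acsm3 and Pparg this would hold only if reads of both strands were counted, and the strand setting is not given.

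The bases before the start are shown for 4 genes, Slc16a1, Cpt1a, Pparg and Ppargc1a, because these were called higher in surface colonocyte-like than in stem-like nuclei in at least 1 library. The sequences are from RefSeq (GRCm38.p6), 250 bases each, written 5′ to 3′ on the strand of the gene. RefSeq starts can differ from the gene positions given above. The Cpt1a window thus lies inside the stated span of the gene, as does most of the Pparg window. Capitals mark matches on either strand to AGGTCA, the half-site bound by many nuclear receptors, and to ACGTG, a form of the core of the site bound by HIF. GCGTG, the other form of that core, was not searched and is not marked. CACGTG holds ACGTG on both strands, which overlap.
Slc16a1, chr3:104638414-104638663: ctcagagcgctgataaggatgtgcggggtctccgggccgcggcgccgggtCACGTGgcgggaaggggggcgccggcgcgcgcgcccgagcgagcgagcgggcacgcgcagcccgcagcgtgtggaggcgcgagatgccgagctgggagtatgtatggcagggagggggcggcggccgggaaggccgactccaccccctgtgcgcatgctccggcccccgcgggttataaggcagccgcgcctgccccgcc
Cpt1a, chr19:3323051-3323300: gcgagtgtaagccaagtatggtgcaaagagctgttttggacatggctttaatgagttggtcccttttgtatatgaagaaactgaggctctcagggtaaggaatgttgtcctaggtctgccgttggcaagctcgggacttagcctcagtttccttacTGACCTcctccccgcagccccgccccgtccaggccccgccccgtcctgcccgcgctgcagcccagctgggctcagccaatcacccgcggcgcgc
Pparg, the first of its 3 starts, chr6:115360894-115361143: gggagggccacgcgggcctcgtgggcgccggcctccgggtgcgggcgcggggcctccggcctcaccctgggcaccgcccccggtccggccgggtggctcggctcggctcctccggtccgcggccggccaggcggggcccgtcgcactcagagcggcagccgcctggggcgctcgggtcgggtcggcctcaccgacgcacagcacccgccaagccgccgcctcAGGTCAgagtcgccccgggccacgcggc
Ppargc1a, minus strand, chr5:51567726-51567975: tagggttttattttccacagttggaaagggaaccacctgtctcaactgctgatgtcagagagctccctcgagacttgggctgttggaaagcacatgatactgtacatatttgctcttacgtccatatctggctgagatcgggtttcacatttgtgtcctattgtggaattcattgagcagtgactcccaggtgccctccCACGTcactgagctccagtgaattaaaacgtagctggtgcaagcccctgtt
AGGTCA was found in 4 of the 11 windows of the 9 genes, at 2 of the 3 starts of Pparg, in Cpt1a and at the far end of Acadm, and in 14% of all 32851 promoter windows. ACGTG was found in Slc16a1 and Ppargc1a and in 16.6% of all windows. A direct repeat of AGGTCA with 1 base between, the arrangement bound by PPAR with its partner RXR, was in none of the 11 windows and in 0.0335% of all. The same held for TCAAGGTCA, the site bound by estrogen-related receptors, found in 0.387% of all. These matches describe letters only, and no binding was measured.

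Different courses of level were seen along the crypt. Slc5a8, Acsm3 and Ppara were highest in the middle of the order and fell towards the surface. Slc16a1, Cpt1a, Pparg and Ppargc1a rose up to the Gsdmc enterocyte-like class and stayed above stem-like nuclei at the surface. Among these, only Ppargc1a in WT and Pparg in HIF-1α KO were higher at the surface than in Gsdmc enterocyte-like nuclei with intervals apart. Acads was higher in Gsdmc enterocyte-like than in stem-like nuclei in WT, and Acadm differed from stem-like nuclei in no ordered class beyond its interval. The plot of levels by class shows the 9 genes in both libraries.

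**Figure D1:**
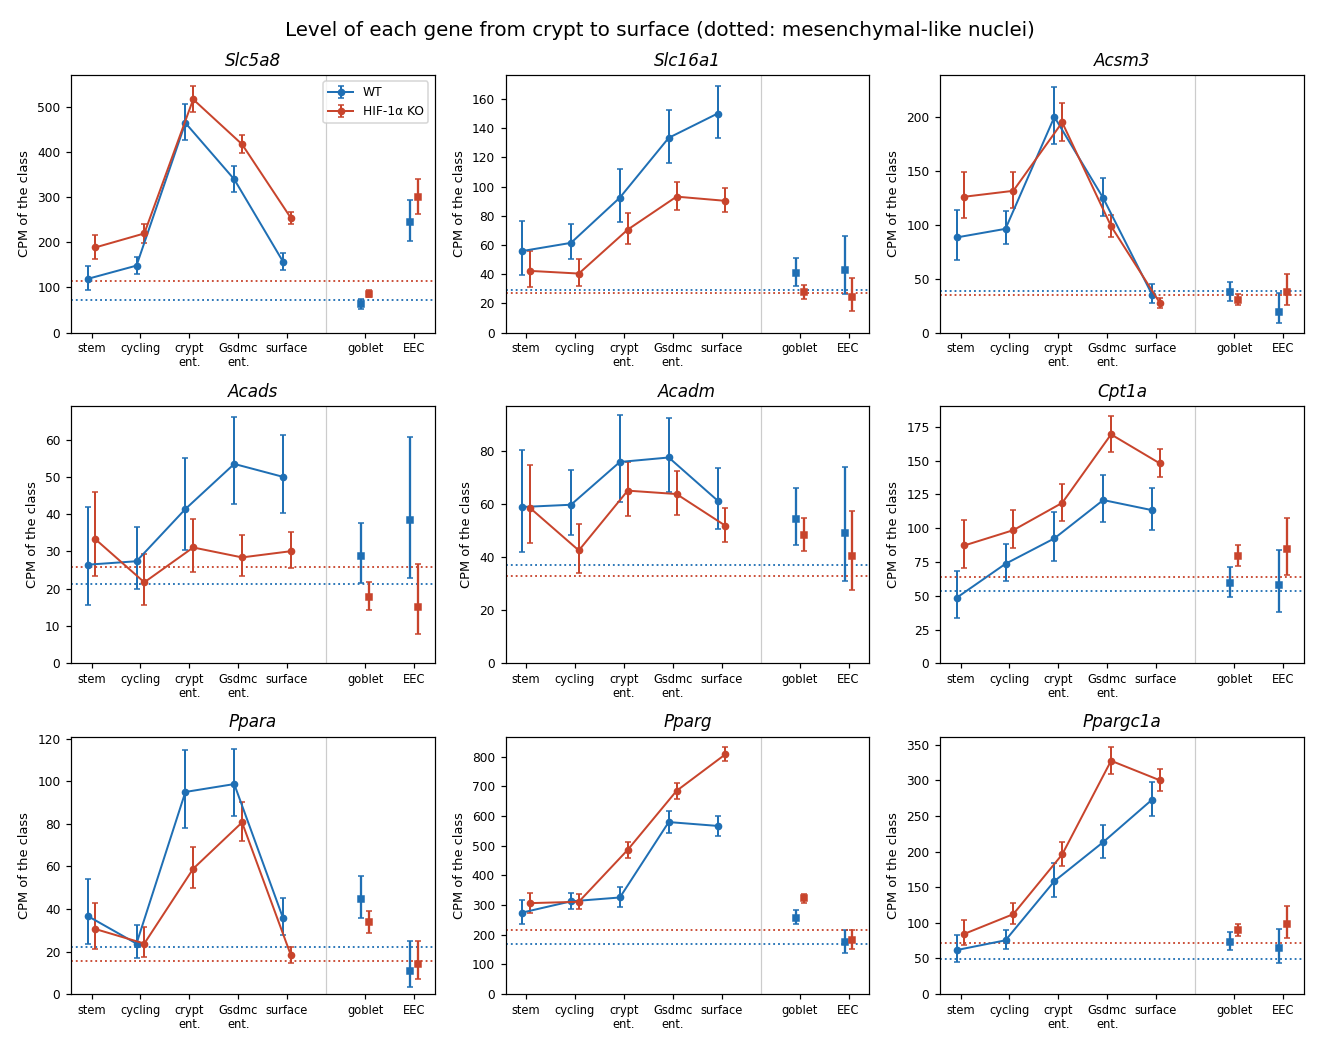
Level of each of the 9 genes in CPM (vertical axes, from 0) in 5 classes ordered from crypt to surface and in goblet-like and enteroendocrine-like (EEC) nuclei, with WT in blue and HIF-1α KO in red. Points are sums of UMIs per class, bars are exact 95% Poisson intervals and dotted lines are the levels in mesenchymal-like nuclei. Slc5a8, Acsm3 and Ppara peak in crypt or Gsdmc enterocyte-like nuclei, while Slc16a1, Cpt1a, Pparg and Ppargc1a are higher at the surface than in stem-like nuclei.

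The 2 transporters differed in where they were highest. Slc5a8 in WT was at 119 CPM in stem-like, 148 in cycling, 465 (426 to 506) in crypt enterocyte-like, 340 (312 to 370) in Gsdmc enterocyte-like and 157 (140 to 176) in surface colonocyte-like nuclei. In HIF-1α KO the levels in the same order were 189, 220, 517 (489 to 546), 417 (397 to 438) and 254 (240 to 268) CPM. In both libraries the intervals of the crypt and Gsdmc enterocyte-like nuclei did not overlap with each other or with any other class. The level in crypt enterocyte-like over surface colonocyte-like nuclei was 2.96-fold in WT (log2 1.57, 95% interval 1.36 to 1.78) and 2.04-fold in HIF-1α KO (log2 1.03, 0.91 to 1.14). Enteroendocrine-like nuclei also held Slc5a8, at 246 CPM in WT and 300.0 in HIF-1α KO. Goblet-like nuclei did not exceed mesenchymal-like nuclei, at 63.0 and 86.3 CPM against 71.4 and 115 CPM.

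Slc16a1, by contrast, was lowest in stem-like and cycling nuclei of the 5 ordered classes. In WT it was at 55.8 CPM in stem-like, 61.4 in cycling, 92.4 in crypt enterocyte-like, 133 in Gsdmc enterocyte-like and 150.0 (133 to 169) in surface colonocyte-like nuclei. In HIF-1α KO it was at 42.3, 40.4, 70.5, 93.1 and 90.2 (82.3 to 98.7) CPM. The last 2 classes did not differ beyond their intervals in either library, and mesenchymal-like nuclei held 29.0 and 27.0 CPM. Surface colonocyte-like nuclei exceeded this mesenchymal-like level 5.17-fold in WT and 3.34-fold in HIF-1α KO.

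The surface class joins 2 clusters, and the transporters differed between them. In the larger cluster, led by genes such as Ceacam20, Slc5a8 was at 133 CPM in WT and 217 in HIF-1α KO, and in the smaller one, led by Saa1, an acute-phase gene, it was at 246 and 400 (362 to 440). Slc16a1 was at 122 and 81.7 CPM in the larger and at 254 (207 to 308) and 124 (104 to 148) in the smaller cluster. Both transporters were thus higher in the Saa1 cluster in both libraries, with intervals apart. Pparg went the other way, at 613 and 880 CPM in the larger and 398 and 523 in the smaller cluster. The smaller cluster held 68 nuclei in WT and 131 in HIF-1α KO.

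Acsm3, which encodes a mitochondrial synthetase that activates medium-chain fatty acids and butyrate, had the sharpest fall of the 9 genes from the crypt enterocyte-like class to the surface. In WT it was at 88.2 CPM in stem-like, 96.1 in cycling, 200 (175 to 228) in crypt enterocyte-like, 125 (108 to 143) in Gsdmc enterocyte-like and 35.1 (27.2 to 44.7) in surface colonocyte-like nuclei. In HIF-1α KO it was at 126, 131, 195 (178 to 213), 98.6 (88.9 to 109) and 27.4 (23.1 to 32.3) CPM. The crypt enterocyte-like level was 5.69-fold that of the surface in WT and 7.11-fold in HIF-1α KO. At the surface, Acsm3 did not exceed the 38.5 and 34.9 CPM of mesenchymal-like nuclei, which were shallower. The part of free RNA in its surface level was not tested, and both folds have that level as their denominator.

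Of the acyl-CoA dehydrogenases, Acads in WT was at 26.4 CPM (15.7 to 41.8) in stem-like nuclei, 27.4 (20.0 to 36.6), 41.4 and 53.5 (42.7 to 66.1) in the classes above and 50 (40.4 to 61.2) at the surface. The Gsdmc enterocyte-like level was 2.02-fold that of stem-like nuclei (log2 1.02, 0.27 to 1.84), against a log2 ratio of -0.23 (-0.78 to 0.35) in HIF-1α KO, a difference that was not tested. In WT the cycling and surface intervals did not overlap either. In HIF-1α KO the highest class was stem-like, at 33.3 CPM, and the surface was at 30.1 (25.6 to 35.2). The intervals of the 5 ordered classes of HIF-1α KO all overlapped with that of stem-like nuclei, and the surface level there was close to the 25.9 CPM of mesenchymal-like nuclei. Acadm was between 58.8 and 77.4 CPM in the 5 ordered classes of WT and between 42.4 and 64.9 CPM in those of HIF-1α KO. Mesenchymal-like nuclei held 36.9 and 32.7 CPM of Acadm.

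Cpt1a, the entry step for long chains into mitochondria, rose up to the Gsdmc enterocyte-like class. In WT it was at 48.5, 73.6, 92.4, 121 and 113 (98.6 to 130) CPM from stem-like to surface colonocyte-like nuclei, and in HIF-1α KO at 87.2, 98.5, 119, 169 and 148 (138 to 159). In stem-like nuclei of WT it did not exceed the mesenchymal-like level of 53.4 CPM. Goblet-like nuclei were at 59.2 and 79.5 CPM, below the surface level in both libraries. They did not exceed the mesenchymal-like levels of 53.4 and 64.2 CPM beyond the intervals in either library.

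The 3 regulators followed different courses. Ppara was at 36.7, 23.7, 95.1 (78.0 to 115), 98.8 (83.9 to 115) and 35.6 (27.6 to 45.3) CPM in WT from stem-like to surface colonocyte-like nuclei, and at 30.6, 23.7, 58.9 (49.8 to 69.2), 80.7 (72.0 to 90.3) and 18.2 (14.7 to 22.2) in HIF-1α KO. The Gsdmc enterocyte-like level was 2.77-fold that of the surface in WT and 4.44-fold in HIF-1α KO. The HIF-1α KO surface was close to the mesenchymal-like level of 15.8 CPM, and in its Saa1 cluster 1 UMI of Ppara was counted in 131 nuclei. Pparg instead stayed high at the surface, with 275, 313, 326, 580.0 (543 to 619) and 567 (534 to 602) CPM in WT and 307, 311, 486, 685 (659 to 712) and 809 (784 to 833) in HIF-1α KO. Its level in mesenchymal-like nuclei was 168 and 216 CPM. Ppargc1a was at 61.7, 75.4, 158, 213 and 273 (249.8 to 298) CPM in WT and at 84.5, 112, 196, 327 and 300.0 (285 to 315) in HIF-1α KO. In WT each of the upper 3 classes differed from the next beyond its interval, and the surface exceeded mesenchymal-like nuclei 5.61-fold.

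The share of nuclei in which a gene was found grows with depth, so each nucleus was cut at random to 1000 UMIs. Then 29.7% of crypt enterocyte-like, 12.6% of surface colonocyte-like and 7.27% of mesenchymal-like nuclei of WT had a UMI of Slc5a8, against 39.0%, 19.2% and 12% in HIF-1α KO, where 7 shallower mesenchymal-like nuclei were left out. At full depth the shares of crypt enterocyte-like nuclei were 53.7% and 77.8%, with medians of 2387 and 4135 UMIs, and those of mesenchymal-like nuclei 13% and 29.8%, with medians of 1956 and 2404 UMIs in fibroblast-like nuclei. For Pparg the thinned shares were 22.9% of stem-like and 36.0% of surface colonocyte-like nuclei in WT and 24.1% and 44.0% in HIF-1α KO, with 17.8% and 20.7% of mesenchymal-like nuclei. The order of these classes was that of their CPM.

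The values named outside the epithelium were chosen after they were seen. Slc16a1 had its highest level of all classes, by its point value, in mesothelial-like nuclei, the lining of the outer colon wall, at 342 CPM (209 to 529) in WT and 131 (56.3 to 257) in HIF-1α KO, from only 18 and 14 nuclei. In HIF-1α KO this interval overlapped those of several epithelial classes, the surface colonocyte-like class among them. Pparg was at 266 (201 to 346) and 405 (301 to 532) CPM in lymphatic endothelial-like nuclei and at 296 (235 to 367) and 261 (222 to 307) in immune-like nuclei, against 143 and 184 in other endothelial-like nuclei. Slc5a8, between 49.5 and 90.2 CPM in the named non-epithelial classes of WT and between 65.2 and 167 in those of HIF-1α KO, was below its crypt enterocyte-like level in each of them.

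The question of how the ends of this order differ was put as the ratio of surface colonocyte-like over stem-like nuclei. A ratio was called when it reached 2-fold and the Poisson intervals did not overlap, among genes with at least 50 UMIs in both classes together. In WT, 4 of the 9 genes were called higher, against 16.4% of the 6531 genes tested, and 1 was called lower, against 15.8%. In HIF-1α KO, 3 were called higher, against 12.8% of 8781 genes, and 1 lower, against 24.9%. Ppargc1a had the highest ratio of the 9 genes in both libraries, 4.42-fold in WT (log2 2.14, 1.69 to 2.63) and 3.55-fold in HIF-1α KO (log2 1.83, 1.53 to 2.14). Slc16a1 was 2.69-fold higher in WT (log2 1.43, 0.93 to 1.95) and 2.13-fold in HIF-1α KO (log2 1.09, 0.66 to 1.56), the latter falling to a log2 ratio of 0.95 when the Saa1 cluster was left out. Pparg was 2.06-fold higher in WT (log2 1.05, 0.82 to 1.28) and 2.64-fold in HIF-1α KO (log2 1.40, 1.24 to 1.56). Cpt1a was called in WT, at 2.34-fold (log2 1.22, 0.69 to 1.80), and not in HIF-1α KO, where it had a log2 ratio of 0.76 (0.46 to 1.08). In WT the call of Pparg was lost under 3 of 11 alternatives, with all barcodes, with thinning and with nuclei weighted equally (lowest log2 ratio 0.85), and that of Cpt1a under 2, with all barcodes and with assignment by marker score (lowest 0.81).

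Acsm3 was called lower at the surface in both libraries, 2.51-fold in WT (log2 -1.33, -1.85 to -0.80) and 4.60-fold in HIF-1α KO (log2 -2.20, -2.55 to -1.85). Slc5a8, although highest between these ends, had similar log2 ratios of 0.40 and 0.43, and Acadm of 0.06 and -0.18. Ppara was at -0.04 (-0.73 to 0.68) in WT and -0.75 (-1.33 to -0.14) in HIF-1α KO, and was called in neither. Acads was at 0.92 (0.18 to 1.73) in WT and -0.15 (-0.67 to 0.41) in HIF-1α KO, and was called in neither. The median over the 9 genes was 0.92 in WT and 0.43 in HIF-1α KO, and that over all genes tested was -0.06 and -0.35. Genes of over 100 kb had a median of -0.26 in WT and -0.51 in HIF-1α KO, so that Pparg and Ppargc1a, which span 129 and 113 kb, rose where most long genes were below 0. Mitochondrial UMIs made up 0.667% of the surface colonocyte-like and 0.0948% of the stem-like UMIs in WT, and 1.24% and 0.177% in HIF-1α KO, and their part in these ratios was not tested beyond leaving them out, which changed no call of the 9 genes.

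Scaling by TMM, a method that sets the bulk of genes equal, moved all these ratios up by 0.31 in WT and 0.65 in HIF-1α KO on the log2 scale. This upward shift could not undo a higher call, so the 4 genes called higher in WT and the 3 in HIF-1α KO stayed called. Acsm3 stayed called lower in both libraries. Acads in WT and Slc5a8 and Cpt1a in HIF-1α KO were called higher in addition. The share of all genes called with TMM scaling is not given here. The difference of the log2 ratios between the libraries, HIF-1α KO minus WT, was -0.87 (-1.48 to -0.27) for Acsm3, -1.06 (-1.96 to -0.17) for Acads and 0.35 (0.08 to 0.63) for Pparg, and for the other 6 genes the interval included 0. For Acsm3 the surface level exceeded that of mesenchymal-like nuclei in neither library, so that the size of its difference cannot be read as that of its own RNA. In HIF-1α KO the surface level of Acads did not exceed the mesenchymal-like one beyond the interval (log2 0.22, -0.42 to 0.91). The part of free RNA in the difference of Acads was not tested. With 1 pool per genotype, these differences have no replicate check.

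Other genes of the pathway, 103 in 8 lists, were read in the same way. In surface colonocyte-like over stem-like nuclei, 14 of the 50 tested were called higher and 5 lower in WT, and 10 of 68 higher and 11 lower in HIF-1α KO. Over all genes tested the shares called were 16.4% and 15.8% in WT and 12.8% and 24.9% in HIF-1α KO. Among the 50 tested in both libraries, 9 were called higher in both and 5 lower in both. The ratio plot shows 13 of these 14 beside the 9 genes.

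**Figure D2:**
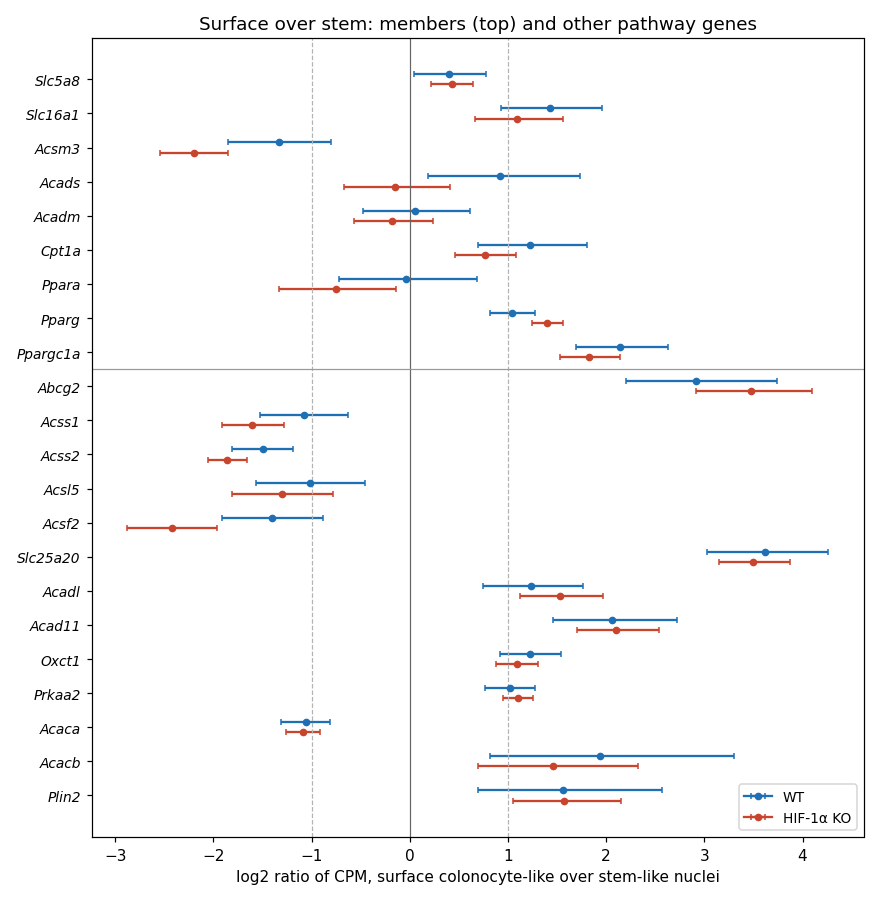
log2 ratio of CPM in surface colonocyte-like over stem-like nuclei (horizontal axis) for the 9 genes, above the line, and for 13 other pathway genes called the same way in both libraries, with WT in blue and HIF-1α KO in red. Bars are exact 95% counting intervals and dashed lines mark 2-fold. Slc25a20 and Abcg2 lie farthest to the right, and Acsm3 and the synthetases Acss1, Acss2, Acsl5 and Acsf2 lie to the left of 0.

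Of the 8 lists, acyl-CoA synthesis held most of the genes called lower in both libraries. Of its 14 genes 7 were tested in each library, and 4 were called lower and none higher in both: Acss2, which makes acetyl-CoA from acetate (263 CPM in stem-like and 93.1 in surface colonocyte-like nuclei of WT, 337 and 93.1 in HIF-1α KO), its mitochondrial relative Acss1 (log2 -1.08 and -1.60), Acsl5, which activates long chains (-1.01 and -1.30), and Acsf2 (-1.40 and -2.42). They fell together with Acsm3, which is not counted in this list. All 5 are acyl-CoA synthetases, and the levels of Acsl3, another of them, went the other way with a log2 ratio of 0.93 in WT and 0.83 in HIF-1α KO, under the 2-fold limit. With TMM scaling the 4 genes and Acsm3 stayed below 0 in both libraries, Acsl5 nearest to it at -0.71 in WT and -0.66 in HIF-1α KO.

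In the carnitine shuttle beyond Cpt1a the largest ratio was that of Slc25a20. This gene, which encodes the carrier that brings acylcarnitines through the inner mitochondrial membrane, went from 35.3 to 431 CPM in WT, or 12.2-fold (log2 3.61, 3.03 to 4.26), and from 58.4 to 661 CPM in HIF-1α KO, or 11.3-fold (log2 3.50, 3.15 to 3.88). It was the only one of the 7 genes of the list called in both libraries, and 3 of the 4 tested in WT and 1 of the 5 in HIF-1α KO were called higher. Of 20 other genes of mitochondrial oxidation, Acadl, the long-chain dehydrogenase (log2 1.24 and 1.53), and Acad11, which acts on very long chains (2.06 and 2.10), were called higher in both libraries, while 9 of 11 tested in WT and 13 of 17 in HIF-1α KO were not called.

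Further genes called in both libraries belong to steps around this core. Oxct1, which makes ketone bodies usable as fuel, rose with log2 ratios of 1.22 and 1.09, and Plin2, a coat protein of lipid droplets and known PPAR target, with 1.56 and 1.57. Abcg2, an export pump listed with the transporters, rose from 23.5 to 178 CPM in WT (log2 2.92) and from 23.4 to 260 CPM in HIF-1α KO (log2 3.48). Among regulators, Prkaa2, a catalytic subunit of the energy sensor AMPK, rose with 1.02 and 1.10. The 2 acetyl-CoA carboxylases moved in opposite directions: Acaca, which serves fatty acid synthesis, fell with -1.06 and -1.09, and Acacb, whose product malonyl-CoA inhibits CPT1, rose with 1.94 and 1.45, from 10.3 to 39.4 CPM in WT. TMM scaling brought Acaca to -0.75 and -0.44. It moved all these ratios up, so that the 9 higher genes could only stay above 0.

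The second comparison asked how HIF-1α KO differed from WT in each epithelial class. A ratio was called when it reached 1.5-fold with intervals apart, again with at least 50 UMIs. Of the 63 pairs of a gene and a class, 4 were called higher and 5 lower in HIF-1α KO. Not all pairs could be called, since only 5 of the 9 genes had enough UMIs to be tested in enteroendocrine-like nuclei. Over all genes tested, between 3.96% and 10.7% were called higher and between 2.61% and 10.2% lower, depending on the class. With nuclei weighted equally 9 pairs were called higher, and with thinning to 1000 UMIs 1 pair was called lower. No share over all genes is given for these alternatives. Slc5a8 and Cpt1a had an interval above 0 in 6 of 7 classes each, and Pparg and Ppargc1a in 4 each. Slc16a1 had one below 0 in 5 classes, and Acads and Ppara in 4 each. Acsm3 had one above 0 in 2 classes and below 0 in 1. The share of all genes with such intervals was not counted. Acadm was below 0 in all 7 by its point value but by its interval in 1. Of these genes, only Cpt1a kept its sign in every class under each alternative with a value. Without integration Slc5a8 in crypt enterocyte-like nuclei was at -0.06, and with thinning Ppargc1a at the surface was at -0.05 and Slc16a1 in cycling nuclei at 0.32. Acadm went up to 0.19 in stem-like nuclei with all barcodes. The classes of a library share its depth and its free RNA, so that they are not replicates.

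**Figure D3:**
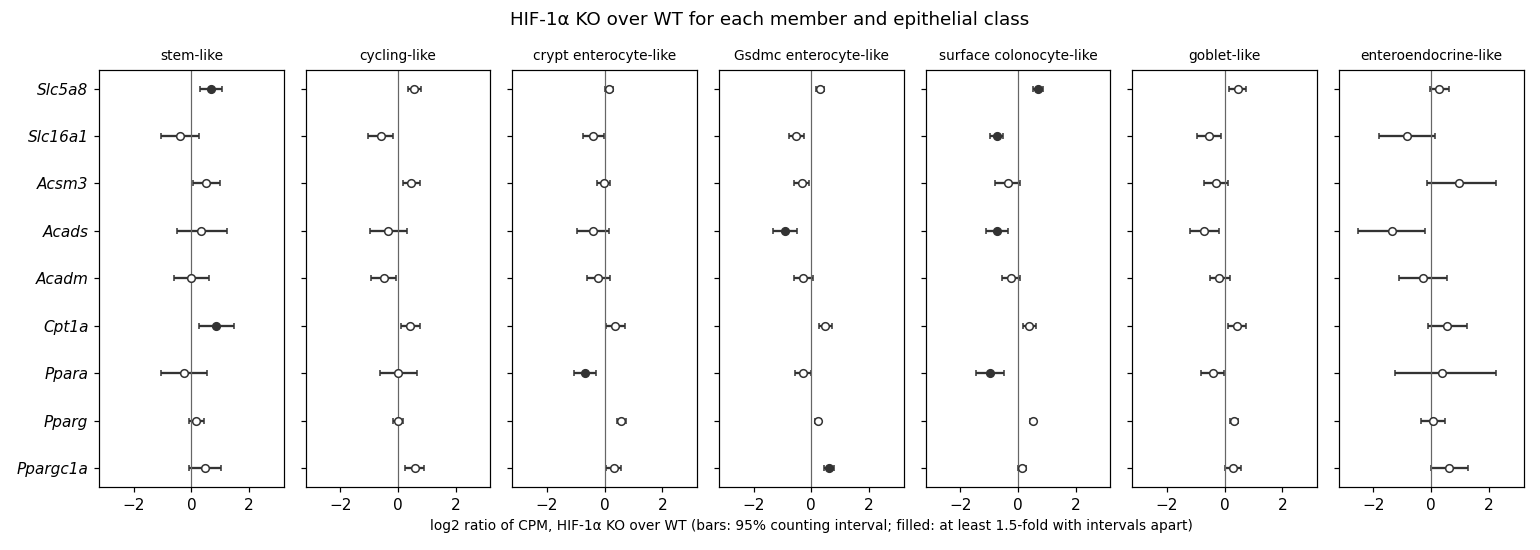
log2 ratio of CPM in HIF-1α KO over WT (horizontal axes) for the 9 genes in 7 epithelial classes, 1 panel per class, with exact 95% counting intervals as bars. Filled points are the 9 pairs called at 1.5-fold with intervals apart. In surface colonocyte-like nuclei Slc5a8 is filled to the right of 0 and Slc16a1, Acads and Ppara to the left.

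More calls fell in surface colonocyte-like nuclei than in any other class. There 1 of the 9 genes was called higher, against 6.58% of 8797 genes, and 3 lower, against 10.2%. Slc5a8 was at 254 CPM in HIF-1α KO and 157 in WT (log2 0.69, 0.51 to 0.88). Its level in mesenchymal-like nuclei moved by the same log2 ratio, from 71.4 to 115 CPM (0.69, 0.26 to 1.11), and the part of free RNA in the surface difference was not tested. Slc16a1 was at 90.2 CPM in HIF-1α KO and 150.0 in WT (log2 -0.73, -0.95 to -0.52), with 27.0 and 29.0 CPM in mesenchymal-like nuclei. Acads was at 30.1 and 50 CPM (log2 -0.73, -1.11 to -0.35), with 25.9 and 21.2 CPM in mesenchymal-like nuclei. In HIF-1α KO its surface level did not exceed the mesenchymal-like one beyond the interval (log2 0.22, -0.42 to 0.91). Ppara was at 18.2 and 35.6 CPM (log2 -0.97, -1.44 to -0.50), both of which are near the mesenchymal-like levels of 15.8 and 22.0 CPM. TMM scaling moved the ratios of this class up by 0.24, with which Slc16a1 and Acads were no longer called, at -0.49 each, and Pparg and Cpt1a were called higher, at 0.75 and 0.62. Without the Saa1 cluster, Slc16a1 was at -0.58 and was not called either.

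In the absorptive classes below the surface, single genes were called. In Gsdmc enterocyte-like nuclei Ppargc1a was higher, at 327 CPM in HIF-1α KO and 213 in WT (log2 0.62, 0.44 to 0.80), against 7% of 8560 genes. In mesenchymal-like nuclei Ppargc1a was at 72.1 CPM in HIF-1α KO and 48.7 in WT. Acads was lower in Gsdmc enterocyte-like nuclei, at 28.4 and 53.5 CPM (log2 -0.91, -1.34 to -0.49), against 5.27%. Its level there in HIF-1α KO did not exceed the 25.9 CPM of mesenchymal-like nuclei beyond the interval (log2 0.13, -0.53 to 0.85). The part of free RNA in both calls was not tested. In crypt enterocyte-like nuclei Ppara was lower, at 58.9 and 95.1 CPM (log2 -0.69, -1.06 to -0.32), against 4.41% of 7817 genes, and none of the 9 was called higher, against 7.25%. The call of Ppargc1a was lost under 4 of 13 alternatives, at resolution 2, with all barcodes, without integration and with assignment by marker score, where its log2 ratio was 0.24.

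In stem-like nuclei Slc5a8 (189 and 119 CPM, log2 0.67, 0.29 to 1.05) and Cpt1a (87.2 and 48.5 CPM, log2 0.85, 0.26 to 1.46) were called higher, against 10.7% of 5946 genes, and none lower, against 3.77%. In mesenchymal-like nuclei Slc5a8 moved by log2 0.69 and Cpt1a went from 53.4 CPM in WT, which is above its stem-like level, to 64.2 in HIF-1α KO, and the part of free RNA in both calls was not tested. Both calls were lost with TMM scaling, which moved the ratios of this class by -0.10. Here genes of over 100 kb had a median ratio of 0.24 and those under 25 kb of 0.06, and Slc5a8 and Cpt1a lie between these lengths, where the median was 0.17. In cycling nuclei none of the 9 genes was called, against 8.2% higher and 3.92% lower of 8009 genes. Nor was any called in goblet-like nuclei, against 6.91% and 6.9% of 9357 genes, or among the 5 tested in enteroendocrine-like nuclei, against 3.96% and 2.61% of 4792 genes.

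Pparg, which passed the interval but not the fold limit, was at 809 CPM in HIF-1α KO and 567 in WT in surface colonocyte-like nuclei (log2 0.51, 0.41 to 0.61) and at 486 and 326 CPM in crypt enterocyte-like nuclei (log2 0.58, 0.41 to 0.75). In stem-like and cycling nuclei its log2 ratios were 0.16 and -0.01, with intervals that included 0, and in mesenchymal-like nuclei it was 0.36 (0.08 to 0.65). Acsm3 had a log2 ratio of -0.04 (-0.27 to 0.20) in crypt enterocyte-like nuclei, where it was highest.

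Among the other pathway genes, 7 of the 68 tested in surface colonocyte-like nuclei were called higher in HIF-1α KO and 3 lower, against 6.58% and 10.2% of all genes. Slc25a20 was at 661 CPM in HIF-1α KO and 431 in WT (log2 0.62), Acsl3 at 529 and 307 (0.78) and Prkaa2 at 718 and 444 (0.69). Plin2 was at 82.9 and 52.1 CPM (log2 0.67), Ucp2, an uncoupling protein of the inner mitochondrial membrane and listed PPAR target, at 34.3 and 19.1 (0.84), and Creb3l3, a liver and gut transcription factor of lipid metabolism, at 32.6 and 14.9 (1.13). Plin2 and Ucp2 are the 2 of the 12 listed PPAR targets that could be tested in this class. In mesenchymal-like nuclei Slc25a20 also went from 51.0 to 94.6 CPM (log2 0.89), Acsl3 from 92.6 to 154 (0.74) and Prkaa2 from 180 to 277 (0.62). Plin2 was there at 10.2 CPM in WT and 28.2 in HIF-1α KO and Ucp2 at 7.85 and 16.9, with too few UMIs to be tested, and the part of free RNA in the surface differences was not tested. Acsf2 was at 14.7 and 35.6 CPM (log2 -1.27), Acsl5 at 18.2 and 35.6 (-0.97) and Pex5, the receptor that imports peroxisomal enzymes, at 13 and 25 (-0.94). The median over the 68 genes was -0.07, and over all genes tested in this class -0.08.

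Genes with a level most like that of each gene were sought among 9849 genes over 14 profiles, 7 epithelial classes in each of the 2 libraries, by Pearson's r of log2(CPM + 10). This is a description, since the classes of a library share depth and free RNA. Acsm3 was closest to Cftr (r = 0.97), the chloride channel of crypt cells, which is itself a marker used to name the crypt enterocyte-like class, and then to P2ry6 and Nr5a2 (0.96 each). Slc16a1 was closest to Car2, a carbonic anhydrase, Trpm6, a magnesium channel, and Ap1s3 (0.94 each). Ppargc1a was closest to Selenbp1 (0.97), Osbpl11 and Hsd3b3 (0.95 each), Pparg to Tbc1d2, Specc1 and Kcnk5 (0.97 each), and Cpt1a to Rap1gds1 (0.98), Pof1b and Myo6 (0.96 each). Slc5a8 was closest to Immp2l (0.90), Robo2 and Tbl1x (0.89 each), and Ppara to Tmem68, Tmprss2 (0.90 each) and Dcaf13 (0.89). Acads was closest to Fahd1 (0.92), Rhot2 (0.90) and Agpat1 (0.88), and Acadm to M6pr (0.88), Trappc10 and AI854703 (0.87 each). Among the 9 genes themselves, Cpt1a and Ppargc1a were the most alike (0.94), followed by Pparg and Ppargc1a (0.89), while Acsm3 and Ppargc1a had an r of 0.16.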

How the data were processed

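Nuclei from snap-frozen colon were sequenced with a 10x Genomics 3′ kit, and the authors aligned the reads to mm10 with Cell Ranger 7.0.1. The deposited values are counts of UMIs per gene and nucleus, not normalized, for the barcodes kept by the program's default calling. Whether intronic reads were counted is not given in the sources used here, and the strand setting is not either. Nuclei with 400 to 5000 detected genes and at most 10% mitochondrial UMIs were kept, 4884 in WT and 4702 in HIF-1α KO. The upper limit on genes is the only step taken against doublets, and no doublet caller was run.

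Libraries were integrated with Seurat 5.3.0 (canonical correlation anchors, 2000 variable features, 30 principal components, resolution 1, seed 1), with the 9 genes and the pathway lists taken out of the features. Clusters were named by the marker list with the highest mean log2 ratio in the cluster over the rest, where at least 3 markers of the list passed a log2 ratio of 1 and a share of 10% of nuclei, limits that were chosen with the data in view. Of 23 clusters, 21 were named.

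UMIs were summed per class and library with Python 3.11.15, and CPM, exact 95% Poisson intervals and exact conditional 95% intervals of log2 ratios were computed with scipy 1.17.1. They cover counting error only. TMM factors are from edgeR 4.0.16. The calling rule was run on simulated Poisson counts with planted changes larger than the call limits. Those counts held no variation between nuclei, animals or libraries, so the run cannot show how the calls fare under such variation. The 9 genes and the lists were chosen with earlier results of these data known. Named from the lists are genes called in both libraries in surface over stem-like nuclei, or in HIF-1α KO over WT at the surface, up to 6 a list by size. Of the genes in the lists, 2 enter the counts and are not reported here by name. For likeness, genes with at least 200 UMIs in epithelial nuclei entered, and 3 are named for each gene. Gene positions are from GENCODE M21 by Ensembl identifier, which matched 32158 of 32285, and promoter windows from RefSeq. The bins of gene length were added after the data were seen.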

Additional observations from a re-analysis of the deposited data

How the results depend on the processing

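With 1 library per genotype, no replicate could be left out. No paired analysis was possible because each group has 1 sample. Counts of called genes were recomputed under 13 alternatives. At resolution 0.5 and without integration no cluster took the stem-like name, so that surface over stem-like ratios could not be computed there. Of the 9 genes, 2 rather than 4 were called higher at the surface in WT, and 2 rather than 1 lower in HIF-1α KO, when all barcodes were clustered. Assignment by marker score also gave 2 lower in HIF-1α KO. Thinning to 1000 UMIs left 0 lower in WT and 1 pair lower in HIF-1α KO over WT. Nuclei weighted equally gave 9 pairs higher in HIF-1α KO, and TMM scaling 5 genes higher at the surface in HIF-1α KO. The cause of these shifts was not tested, except that thinning leaves fewer UMIs. Shares over all genes are given for the main setting only, so none stands beside these counts. Every called ratio of the 9 genes kept its sign under each alternative that gave a value, while ratios that were not called turned in part. Slc16a1 and Ppargc1a in WT and Acsm3, Pparg and Ppargc1a in HIF-1α KO stayed called at the surface over stem-like nuclei under all 11 alternatives with a value. TMM scaling, which moved these ratios up, could not undo the call of a gene called higher. In WT, Pparg was lost under 3 of these, Cpt1a under 2 and Acsm3 under 1, and Slc16a1 in HIF-1α KO under 3. No call of HIF-1α KO over WT did so under all of them, and Slc5a8 at the surface, with log2 ratios from 0.54 to 0.93, was lost only without integration. Leaving out the Saa1 cluster was chosen after seeing the data. Differences between the pooled animals are outside what counting depth can show.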
